A study of Homo sapiens with 10 samples.

Results

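The genes described are those of Wnt signalling in the established human cell line HuCCT1, derived from an intrahepatic cholangiocarcinoma (bile duct cancer). They are the Wnt ligands, the Frizzled and LRP receptors, the R-spondin receptors of the LGR family with the ligases RNF43 and ZNRF3, the secreted and surface inhibitors, and the intracellular transducers, feedback genes and TCF/LEF factors. They were chosen by symbol, though with earlier results of these data known. Of the 19775 genes read by probe sets with 1 gene symbol, 53 were found. A probe set is a group of short array probes that report 1 transcript region, and each gene is represented by its brightest probe set over the 10 arrays. 5 arrays held RNA of HuCCT1 cells carrying an empty vector and 5 held RNA of HuCCT1 cells carrying the vector labelled YAPS94A. The sample labels and title name the S94A substitution of the co-activator YAP1, known to weaken its binding to TEAD factors, whereas the design text names S127A, which is known to make YAP1 constitutively active. The construct is therefore called by its label. Time after transfection, and whether each vector is 1 clone or a pool, are not given in the sources used here. The labels do not say that the arrays of one vector stem from different cultures, and the p-values therefore rest on a spread between arrays that may be technical.

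Wnt proteins are secreted lipid-modified ligands that bind Frizzled receptors and, for the beta-catenin branch, the co-receptors LRP5 and LRP6. Receptor engagement stops a complex built on APC and the AXIN scaffolds from marking beta-catenin (CTNNB1) for destruction, and beta-catenin then activates genes together with TCF/LEF factors. Beta-catenin-independent branches use some of the same receptors and act on cell polarity and calcium. YAP1 is known to meet the pathway at several points, among them the destruction complex, and the comparison asks how the construct changed the levels of these genes.

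The labels were first checked on YAP1 itself. Its log2 signal was 12.12, 12.05, 12.47, 12.48 and 12.49 on the empty vector arrays and 12.87, 12.53, 12.90, 12.92 and 13.01 on the construct arrays, numbered 1 to 5 in this and every later list. The groups did not overlap, with a difference of 0.52 ± 0.11 (SE, 1.44-fold, limma adjusted p = 0.00277). The 30 nearest genes in chromosome order with signals above the median (called neighbours from here on) had a median difference of 0.34, and subtracting it left 0.184 (adjusted p = 0.213). In this and later comparisons with neighbours the median was subtracted as a constant. Their p-values therefore rest on the spread between arrays and leave out the spread among the neighbours. The line's bile duct and epithelial markers were bright, with KRT7, KRT8, KRT18, KRT19, EPCAM, CDH1 and SOX9 between 12.17 and 14.32 on the 10 arrays. Of these 7 genes 5 rose, by 0.13 (KRT18) to 0.33 (KRT8), and EPCAM and SOX9 did not pass the test. That is 71.4% called, beside 50.1% of all genes above the median signal. Markers of other cell types were mostly dim, and 6 of 6 endothelial markers did not pass the test, with single values of 4.07 to 5.99. In the fibroblast list 1 of 6 passed, LUM, which rose by 2.67, and the list's mean signal was 6.30 to 6.45 with empty vector and 6.71 to 6.81 with the construct. LUM itself read 7.81 to 8.25 and then 10.64 to 10.86, and COL1A1 read 8.49 to 9.05 over all arrays. In the leukocyte list 1 of 4 measured genes passed, LYZ, which fell by 1.48, and the mean signal was 5.69 to 5.79 and 5.30 to 5.45. In the hepatocyte list FGB and SERPINA1 fell, by 0.38 and 0.19, with list means of 6.89 to 7.01 and 6.80 to 6.89. SERPINA1 was not dim, at 12.59 to 12.92 over all arrays, in the range of the bile duct and epithelial markers. The part of these markers in the results below was not tested.

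8 of the 53 Wnt genes were higher with the construct, 9 were lower and 36 did not pass the limma test at an adjusted p of 0.05. The 17 calls are 32.1% of the Wnt genes, near the 36.3% of all 19775 genes that passed, so the share is not a feature of Wnt genes. The median difference (YAPS94A minus empty vector, log2) was -0.013 over the Wnt genes and -0.004 over all genes. 8 Wnt genes (15.1%) passed with a difference of at least 1.5-fold, beside 8.29% of all genes, and these were WNT5A, DKK3, FZD7, ZNRF3 and LRP6, which fell, and WNT9A, FZD1 and WNT7A, which rose. The groups did not overlap for 16 Wnt genes (30.2%), beside 29.1% of all genes. In RNA of whole cultures, fewer cells that express a gene and less RNA per cell cannot be told apart. Without the probe sets whose names end in _x_at or _s_at, which can read more than 1 transcript, 44 of the 53 genes were measured and 5 were lower.

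Many of the Wnt genes were dim. 29 of the 53 had a mean over all arrays above 6.27, the median of all probe set values, and 6 lay below the lower quartile, 4.73. Of the 29 brighter genes 16 passed (55.2%), beside 50.1% of the genes above that median in the whole series. The remaining call was WNT5A, whose mean over both vectors is drawn down by its fall. Of the 36 genes that did not pass, 27 had a 95% interval within 0.25 log2 units of 0. Such an interval bounds the difference on the array, which for a dim probe set can be smaller than the difference in RNA.

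**Figure D1:**
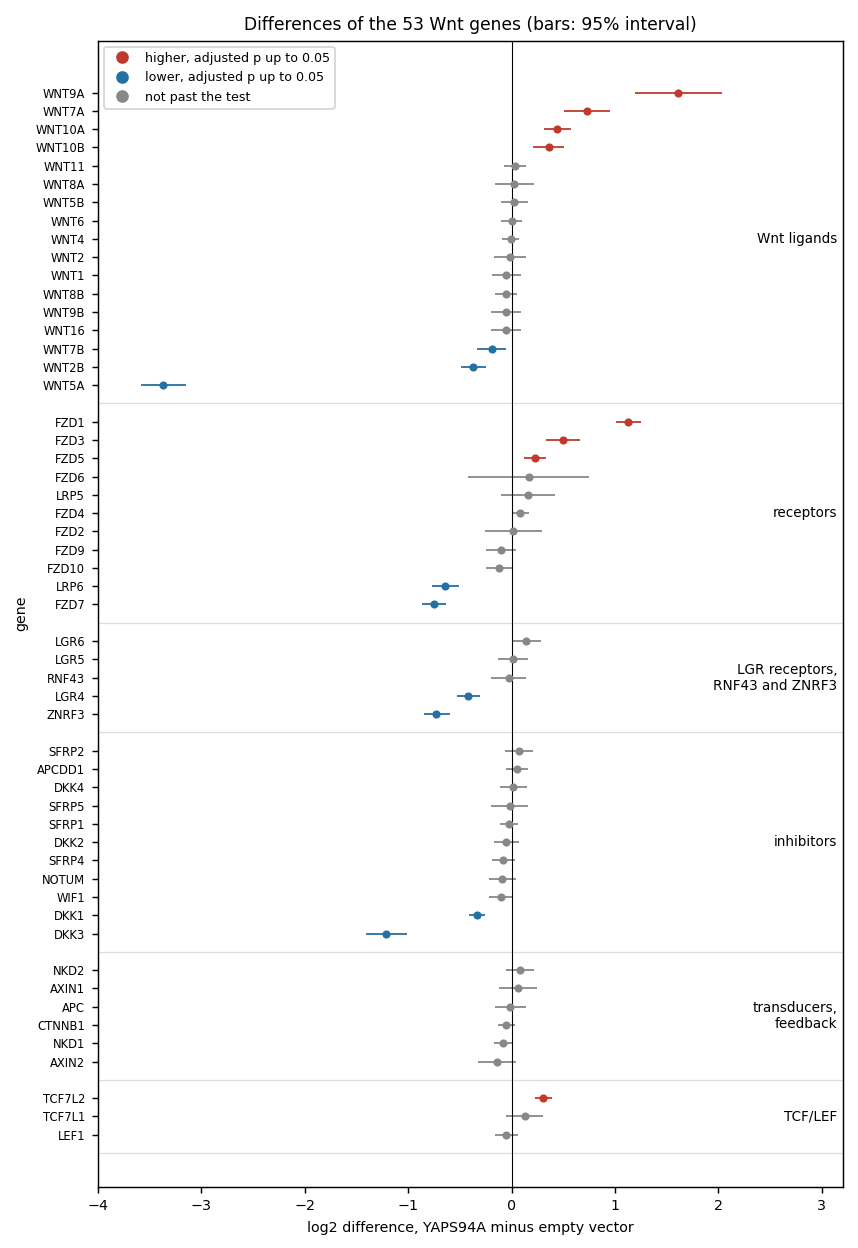
The plot gives the log2 difference (x axis, YAPS94A minus empty vector) of each of the 53 Wnt genes (y axis), grouped by role, with 95% intervals from the limma fit on 5 arrays per vector. Red points were higher, blue lower and grey did not pass; WNT5A stands at -3.37, WNT9A at 1.61 and FZD1 at 1.13.

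The ligands went in both directions, since 4 of 17 rose, 3 fell and 10 did not pass (41.2% called, beside 36.3% of all genes). WNT5A, the prototype ligand of beta-catenin-independent signalling, had the largest difference of the 53 genes. It read 7.56, 6.96, 7.47, 7.45 and 7.24 with empty vector and 3.95, 4.05, 3.94, 3.88 and 4.04 with the construct. All construct arrays lay below the lower quartile of signals, so the true fall may be larger than the measured one. The fall was 3.37 ± 0.099 (SE, 10.3-fold, adjusted p = 2.1e-10). The other WNT5A probe set, nearly as bright with empty vector, went from 7.48 to 3.64 and fell by 3.84 ± 0.15 (adjusted p = 4.34e-09 over all probe sets).

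The upstream sequences of WNT5A are shown because this ligand moved most. RefSeq (GRCh38.p14) gives WNT5A a pair of starts on the minus strand, and the 250 bases before each are printed 5′ to 3′, from chr3:55487307-55487556 and chr3:55481399-55481648. They were searched on both strands for GGAATG, the core bound by TEAD factors, and CTTTGA, a core of TCF/LEF sites. Neither set of letters occurs in these windows, so no base is in capitals.
WNT5A, upstream start: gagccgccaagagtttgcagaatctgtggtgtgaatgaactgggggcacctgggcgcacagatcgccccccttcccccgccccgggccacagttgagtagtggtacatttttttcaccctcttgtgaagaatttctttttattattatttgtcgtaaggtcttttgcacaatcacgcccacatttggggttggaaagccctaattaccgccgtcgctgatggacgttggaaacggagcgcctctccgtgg
WNT5A, downstream start: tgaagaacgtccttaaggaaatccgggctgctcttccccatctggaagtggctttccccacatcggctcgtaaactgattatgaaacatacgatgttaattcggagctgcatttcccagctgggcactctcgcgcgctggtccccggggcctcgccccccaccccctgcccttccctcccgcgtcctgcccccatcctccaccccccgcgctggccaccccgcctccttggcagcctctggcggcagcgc

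WNT9A rose most among the ligands. It read 6.42, 6.17, 5.95, 5.89 and 5.48 with empty vector and 7.47, 8.22, 7.36, 7.42 and 7.51 with the construct, so the lowest construct array lay well above the highest empty vector array. The rise was 1.61 ± 0.19 (3.06-fold, adjusted p = 3.17e-05). The other WNT9A probe set was dimmer, at 5.33 and 5.32, and did not differ past the test (-0.01 ± 0.062), and the mean of the pair of probe sets rose by 0.803. WNT7A, another ligand, read 7.27, 7.11, 7.23, 7.03 and 6.87, and then 7.84, 8.15, 7.81, 7.70 and 7.66. Its groups did not overlap, and it rose by 0.73 ± 0.099 (1.66-fold, adjusted p = 9.67e-05), with a median of 0.18 among its chromosome neighbours.

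Smaller changes were seen in 4 more ligands. WNT10A rose by 0.44 ± 0.059 (adjusted p = 9.73e-05), and its other probe set by 0.48 ± 0.053. WNT10B, its close relative, rose by 0.36 ± 0.067 (adjusted p = 0.00109). WNT2B fell by 0.37 ± 0.055 (adjusted p = 0.000186) on the brightest of its 4 probe sets, while the other 3 read between 4.41 and 5.24 and did not pass, and the mean of the 4 fell by 0.121. WNT7B fell by 0.19 ± 0.065 (adjusted p = 0.0359) on an _x_at probe set, and its groups overlapped. That call was lost when any of 6 single arrays was left out, with adjusted p up to 0.0906, and without _x_at and _s_at probe sets (-0.079, adjusted p = 0.261). The other 10 ligands (WNT1, WNT2, WNT4, WNT5B, WNT6, WNT8A, WNT8B, WNT9B, WNT11 and WNT16) differed by -0.06 to 0.03. WNT5B, the closest relative of WNT5A, was at 0.03 (95% interval -0.10 to 0.16), among neighbours with a median of -0.19. Relative to those neighbours WNT5B was at 0.216 (adjusted p = 0.0101).

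The receptors also divided, since 3 of 11 rose, 2 fell and 6 did not pass (45.5% called, beside 36.3% of all genes). FZD1, a seven-pass Wnt receptor, read 8.14, 8.17, 8.39, 8.29 and 8.26 with empty vector and 9.33, 9.30, 9.44, 9.46 and 9.38 with the construct. The nearest arrays of the 2 vectors were at 8.39 and 9.30, and the rise was 1.13 ± 0.054 (2.19-fold, adjusted p = 1.26e-08). Its dimmer probe sets, at 3.60 and 4.12 with empty vector, rose by 0.33 and 0.23, and the mean of all 3 rose by 0.566. The 250 bases before the RefSeq start of FZD1, on the plus strand at chr7:91264183-91264432, are given as the counterpart of WNT5A, being the receptor that rose most. Again neither motif is in the window.
FZD1: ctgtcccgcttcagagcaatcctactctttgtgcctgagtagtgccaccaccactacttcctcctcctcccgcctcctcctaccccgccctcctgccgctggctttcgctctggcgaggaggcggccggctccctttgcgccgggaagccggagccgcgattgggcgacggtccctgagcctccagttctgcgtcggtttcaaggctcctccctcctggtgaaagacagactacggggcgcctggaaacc

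FZD7, a Frizzled often high in epithelial cancers, moved the opposite way to FZD1. It read 11.76, 11.77, 11.89, 11.87 and 11.85, and then 11.12, 10.91, 11.06, 11.11 and 11.20. It fell by 0.75 ± 0.054 (1.68-fold, adjusted p = 4.67e-07), and its other bright probe set fell by 1.06 ± 0.055. LRP6, the co-receptor needed for beta-catenin signalling, read 11.17, 11.09, 11.28, 11.32 and 11.31, and then 10.64, 10.42, 10.65, 10.59 and 10.66. Its groups were apart on all 3 of its probe sets. It fell by 0.64 ± 0.060 (1.56-fold, adjusted p = 3.99e-06) on the brightest and by 0.72 and 0.85 on the others. The neighbours of FZD7 had a median of -0.23 and those of LRP6 a median of -0.29. Relative to the neighbours LRP6 was at -0.358 (adjusted p = 0.000468) and FZD7 at -0.522.

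FZD3, which acts in planar polarity, rose by 0.50 ± 0.075 (1.41-fold, adjusted p = 0.000222), with 3 of its 4 probe sets past the test over all probe sets. FZD5 rose by 0.22 ± 0.049 (adjusted p = 0.00355), and its other probe set by 0.28 ± 0.077. FZD4, the receptor for norrin, did not pass on its brightest probe set (0.08 ± 0.038, adjusted p = 0.128). The other FZD4 probe set went from 7.11 to 8.08 without overlap (0.97 ± 0.12, adjusted p = 8.98e-05 over all probe sets), and the mean of both rose by 0.525. The level of FZD4 is therefore not settled by these probe sets. LRP5, the partner of LRP6, was at 0.16 ± 0.12 (adjusted p = 0.347), among neighbours with a median of 0.28. The remaining receptors, FZD2, FZD6, FZD9 and FZD10, differed by -0.12 to 0.16, and FZD6 had the widest interval (-0.42 to 0.75).

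**Figure D2:**
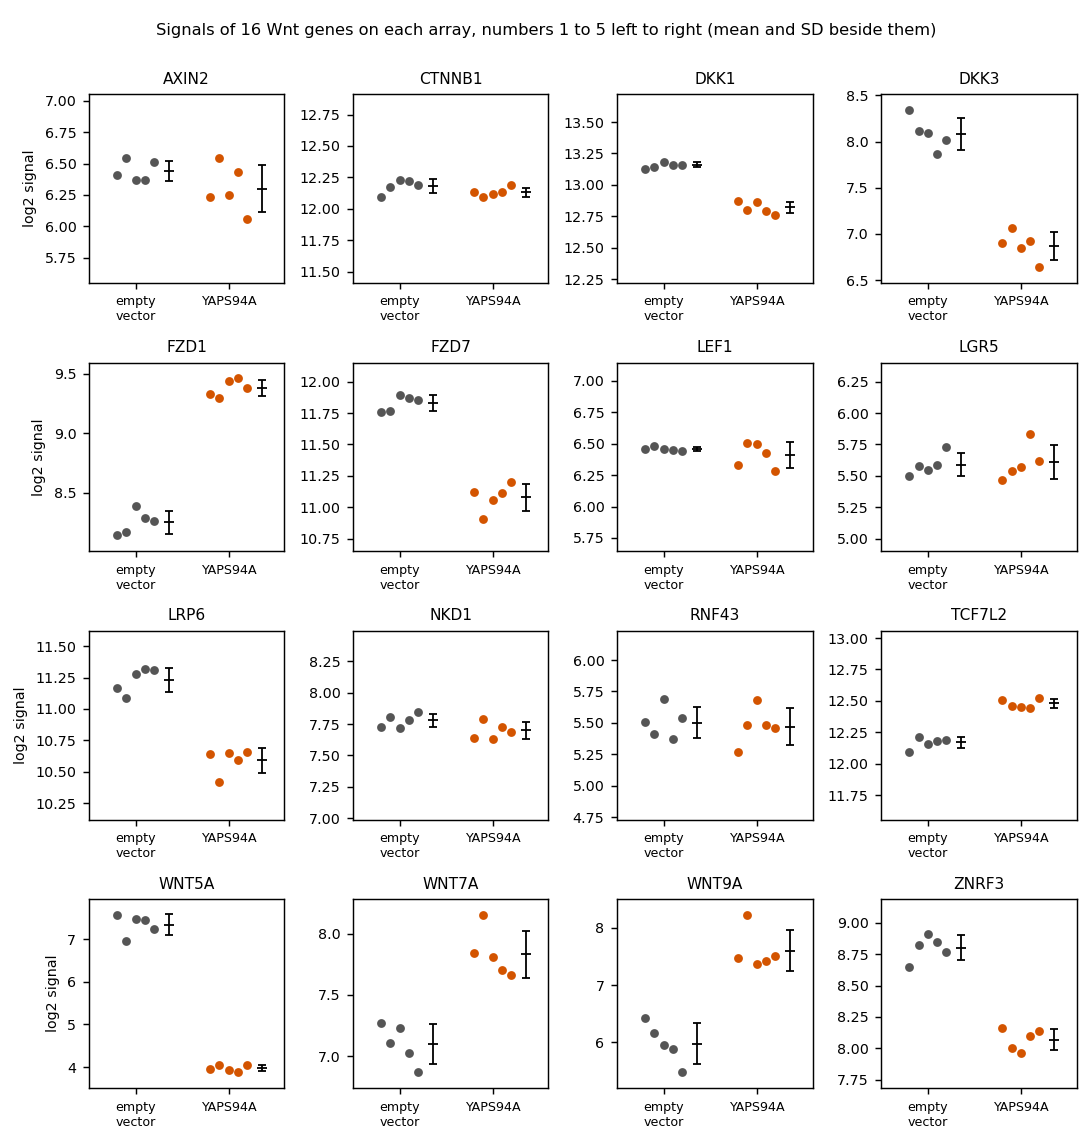
Each panel gives the log2 signal (y axis, range set per gene) of 1 of 16 Wnt genes on the 5 empty vector arrays (grey) and the 5 YAPS94A arrays (orange), with the mean and SD beside them. The groups lie apart for WNT5A, DKK3, FZD7, ZNRF3, LRP6, DKK1, WNT9A, FZD1, WNT7A and TCF7L2 and overlap for AXIN2, CTNNB1, LEF1, LGR5, NKD1 and RNF43.

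Cells set the number of Frizzled receptors at the surface through the ubiquitin ligases RNF43 and ZNRF3, and R-spondins bound to LGR receptors take these ligases away. 2 of these 5 genes were lower and 3 did not pass, where 36.3% of all genes were called. The 2 called genes lay above the median signal and the other 3 below it. ZNRF3 read 8.65, 8.82, 8.91, 8.85 and 8.77 with empty vector and 8.16, 8.00, 7.96, 8.10 and 8.14 with the construct. It fell by 0.73 ± 0.057 (1.65-fold, adjusted p = 1.01e-06), with a median of -0.22 among its neighbours and -0.51 relative to them. RNF43, the related ligase, read 5.51, 5.41, 5.69, 5.37 and 5.54, and then 5.27, 5.48, 5.68, 5.48 and 5.46. Its groups overlapped and it was at -0.03 ± 0.077 (adjusted p = 0.826), a low signal in both.

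LGR4, the broadly expressed R-spondin receptor, fell by 0.42 ± 0.049 (1.34-fold, adjusted p = 2.95e-05). It was the only call among the 3 LGR4 probe sets, the others being dimmer and at -0.00 and -0.12, and the mean of the 3 fell by 0.18. Without _s_at probe sets the call was lost (-0.121, adjusted p = 0.13). LGR5, the stem cell marker and known beta-catenin target, read 5.50, 5.58, 5.55, 5.59 and 5.73, and then 5.47, 5.54, 5.57, 5.83 and 5.62. These ranges overlap, with a difference of 0.02 ± 0.067 (adjusted p = 0.88). LGR6 was at 0.14 ± 0.065 (adjusted p = 0.121) and passed with array numbers as a block (adjusted p = 0.0367), and without YAPS94A array 5 (0.184, adjusted p = 0.0388).

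Among the 11 inhibitors 2 were lower, none was higher and 9 did not pass (18.2% called, beside 36.3% of all genes). Of these inhibitors 4 lay above the median signal and 2 of those passed, beside 50.1% of such genes in the series. DKK1, which binds LRP5 and LRP6 and keeps them from Wnt ligands, was bright on every array. It read 13.13, 13.14, 13.18, 13.16 and 13.16 with empty vector and 12.87, 12.80, 12.86, 12.79 and 12.76 with the construct. The arrays of a vector agreed closely (SD 0.018 and 0.046, n = 5 each), and the fall of 0.34 ± 0.034 (1.26-fold, adjusted p = 7.57e-06) was many times that spread. DKK1 has 1 probe set, and its signal lay near the highest on the arrays, 14.43.

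DKK3, a distant member of the Dickkopf family not known as an LRP blocker, fell further. It read 8.34, 8.11, 8.09, 7.87 and 8.02, and then 6.90, 7.06, 6.85, 6.92 and 6.64. The fall was 1.21 ± 0.091 (2.32-fold, adjusted p = 6.36e-07), and 2 more DKK3 probe sets fell by 1.19 and 0.91. The 3 dim DKK3 probe sets, between 3.61 and 4.72 with empty vector, did not pass, the mean of all 6 fell by 0.566, and without _x_at and _s_at probe sets DKK3 was read by 1 of the dim ones (-0.027, adjusted p = 0.767). The other inhibitors (DKK2, DKK4, SFRP1, SFRP2, SFRP4, SFRP5, WIF1, NOTUM and APCDD1) differed by -0.10 to 0.07. NOTUM and WIF1, the extracellular Wnt deacylase and a Wnt-binding protein, passed only when the arrays numbered 1 and 2 were left out (-0.195 and -0.201, adjusted p = 0.0371 and 0.0146), as did WNT1 and WNT9B.

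The upstream sequence of DKK1 is printed because it alone among the Wnt gene windows held both motifs. The table of RefSeq windows, each of 250 bases before a start and 50 after it, matched 35 of the 53 genes with 44 windows. GGAATG or its reverse complement was in 4 of these windows, of APC, DKK1, RNF43 and WNT16, and in 14.0% of all 35116 windows. CTTTGA or its reverse complement was in 1, that of DKK1, and in 12.9% of all windows, and both motifs were in 2.08%. In the 250 bases before the DKK1 start, on the plus strand at chr10:52314031-52314280, the capitals mark CTTTGA read on the other strand (as TCAAAG) 149 bases before the start, CTTTGA itself 95 bases before it, and GGAATG 50 bases before it. The pair of TCF/LEF matches lies on opposite strands and does not overlap the TEAD match. A match is a description of letters and not a bound site.
DKK1: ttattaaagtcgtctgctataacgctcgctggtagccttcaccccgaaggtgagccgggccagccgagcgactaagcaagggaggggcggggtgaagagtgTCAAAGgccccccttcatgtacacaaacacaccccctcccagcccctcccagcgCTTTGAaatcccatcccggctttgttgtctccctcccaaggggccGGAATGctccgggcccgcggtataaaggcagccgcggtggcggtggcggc

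None of the 6 transducers and feedback genes passed the limma test on the brightest probe set (0 of 6, also 0 at an unadjusted p of 0.05). Over all genes 36.3% passed, and 50.1% of those above the median signal, where 5 of the 6 lay. CTNNB1, beta-catenin itself, read 12.09, 12.17, 12.23, 12.22 and 12.19 with empty vector and 12.13, 12.09, 12.12, 12.13 and 12.19 with the construct. The ranges overlapped and the difference was -0.05 ± 0.038 (95% interval -0.13 to 0.03, adjusted p = 0.36). Its neighbours had a median of -0.24, and relative to them CTNNB1 was at 0.189 (adjusted p = 0.00177, which leaves out the spread among the neighbours). A dimmer CTNNB1 probe set fell by 0.24 ± 0.064 and the dimmest rose by 0.42 ± 0.13, from 4.73, both with overlapping groups.

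AXIN2, the scaffold that beta-catenin itself induces and a common readout of the pathway, gave no uniform answer. The brightest of its 4 probe sets read 6.41, 6.54, 6.37, 6.37 and 6.51, and then 6.23, 6.54, 6.25, 6.43 and 6.06. These overlapped, with a difference of -0.14 ± 0.083 (adjusted p = 0.232). Another AXIN2 probe set, the only one with a plain _at name, went from 4.98 to 5.77 without overlap (0.79 ± 0.14, adjusted p = 0.0011 over all probe sets). The remaining AXIN2 probe sets were at -0.01 and -0.02. The mean of the 4 was 0.154 higher (adjusted p = 0.0247), so the direction depends on the probe set.

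NKD1, a feedback inhibitor that binds dishevelled, read 7.73, 7.81, 7.72, 7.78 and 7.85, and then 7.64, 7.79, 7.63, 7.73 and 7.69. The ranges overlapped (-0.08 ± 0.042, adjusted p = 0.177). NKD2, AXIN1 and APC were at 0.08, 0.07 and -0.01.

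Of the 3 TCF/LEF factors measured, TCF7L2 rose and LEF1 and TCF7L1 did not pass (33.3% called, beside 36.3% of all genes). TCF7L2, the main TCF of epithelia, read 12.09, 12.21, 12.16, 12.18 and 12.19 with empty vector and 12.51, 12.46, 12.45, 12.44 and 12.52 with the construct. The groups were apart by more than the spread of either, and the rise was 0.31 ± 0.036 (1.24-fold, adjusted p = 2.88e-05). 6 of the 7 TCF7L2 probe sets rose, by 0.28 to 0.59. LEF1 read 6.46, 6.48, 6.46, 6.45 and 6.44, and then 6.33, 6.51, 6.50, 6.43 and 6.28. The ranges overlapped (-0.05 ± 0.048, adjusted p = 0.481), and TCF7L1 was at 0.13 ± 0.079 (adjusted p = 0.257).

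**Figure D3:**
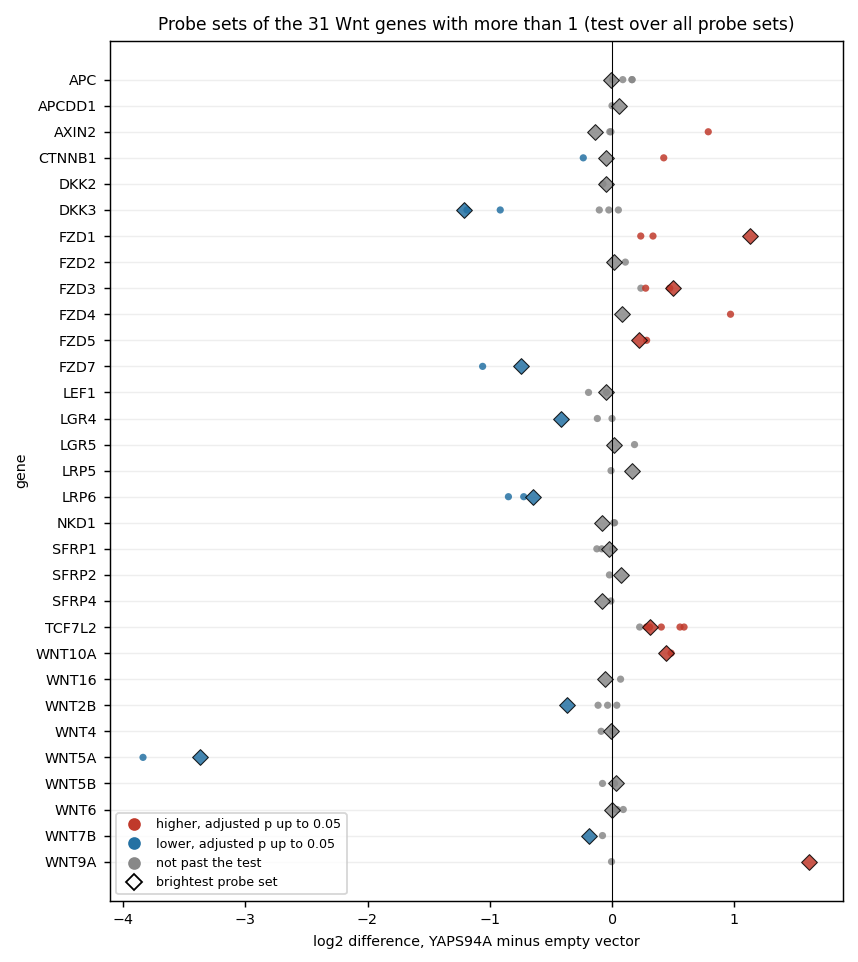
The plot gives the log2 difference (x axis, YAPS94A minus empty vector) of every probe set of the 31 Wnt genes with more than 1 (y axis), diamonds marking the brightest and colours the limma call over all probe sets. All called probe sets of a gene lie on the same side except for CTNNB1, and AXIN2 and FZD4 have calls only on a dimmer probe set (0.79 and 0.97).

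Over all 114 probe sets of the 53 genes, 22 rose and 16 fell, beside 28.6% of all 54613 probe sets called. For 3 of the 31 genes with several probe sets, AXIN2, CTNNB1 and FZD4, only probe sets other than the brightest were called. CTNNB1 was the 1 gene with calls in opposite directions.

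Each difference was also set beside those of the gene's chromosome neighbours. What moved genes of a neighbourhood was not tested. The neighbour median lay between -0.29 and 0.28 over the 53 genes, and after it was subtracted 10 Wnt genes were higher and 9 lower. All 17 earlier calls were among those 19, and CTNNB1 and WNT5B were the additions. These calls leave out the spread among the neighbours. In the whole series 42.0% of 19686 genes passed after the same subtraction, beside 36.3% of all genes before it. The neighbours of WNT5A, DKK3, FZD1 and WNT9A had medians of -0.10, -0.06, 0.07 and -0.01, small beside those differences.

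**Figure D4:**
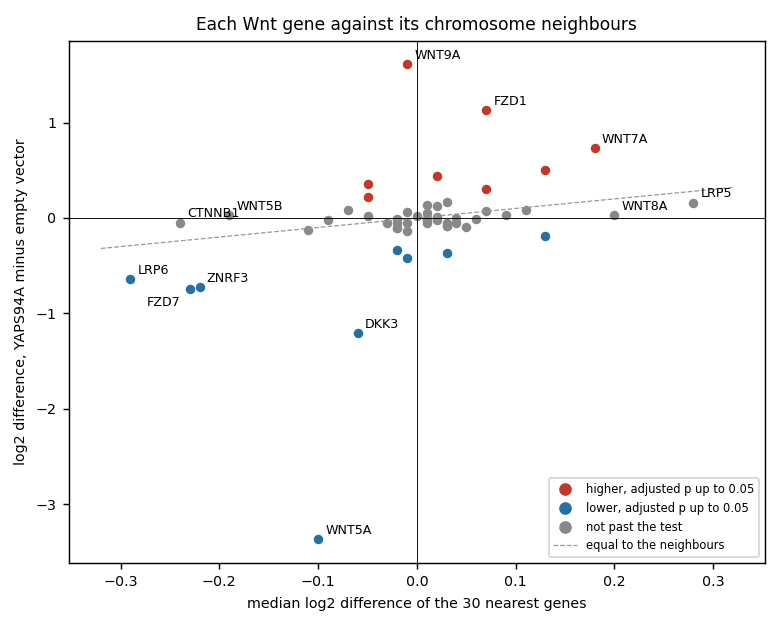
The plot sets the log2 difference of each of the 53 Wnt genes (y axis) against the median log2 difference of its 30 nearest genes above the median signal (x axis), with a dashed line where both are equal. LRP6, FZD7, ZNRF3 and CTNNB1 lie at neighbour medians of -0.29 to -0.22, and WNT5A, WNT9A, FZD1 and DKK3 lie far from the line.

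The rest of the pathway was read from 5 further lists with 104 measured genes, where 18 passed as higher and 19 as lower while 67 did not pass. That is 35.6%, near the 36.3% over all genes. However, 77 of the 104 lay above the median signal, and 31 of those passed (40.3%), beside 50.1% of such genes in the series. Of 21 genes of transduction and the destruction complex, 2 were higher and 2 lower. All 21 lay above the median signal, and 19.0% were called, beside the same 50.1%. CTNNBIP1, which keeps beta-catenin off TCF factors, rose by 0.58 ± 0.043 (adjusted p = 5.34e-07), and CBY1, another beta-catenin antagonist, by 0.20 ± 0.042 (adjusted p = 0.00255). CSNK1E, a casein kinase that acts on dishevelled, fell by 0.79 ± 0.099 (1.73-fold, adjusted p = 5.26e-05), and GSK3A, a kinase of the destruction complex, by 0.35 ± 0.055.

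Of 13 nuclear co-factors 4 were higher and none was lower (30.8% called, beside 36.3% of all genes). The Groucho co-repressor gene TLE4 went from 8.33 ± 0.067 to 9.25 ± 0.17 (mean ± SD, n = 5), a rise of 0.92 ± 0.073 (SE, 1.89-fold, adjusted p = 1.13e-06), and the mean of its probe sets rose by 0.281. TLE5, a short Groucho protein, rose by 0.61 ± 0.063 (adjusted p = 1.02e-05). HBP1, a repressor that binds TCF factors, rose by 0.22 ± 0.038 (adjusted p = 0.000537), but was at 0.017 when its probe sets were averaged and at -0.033 without _x_at and _s_at probe sets.

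Of 17 genes of secretion and extracellular control, 2 were higher and 3 lower (29.4% called, beside 36.3% of all genes). In this list 7 genes lay above the median signal and 3 of those passed (42.9%), beside 50.1% of such genes in the series. The glypican genes GPC4 and GPC3 rose by 0.73 ± 0.055 and 0.43 ± 0.13, and GPC3 did not pass when its probe sets were averaged (0.206, adjusted p = 0.0599). NDP, which encodes the FZD4 ligand norrin, fell by 0.59 ± 0.047 (adjusted p = 1.07e-06). SOSTDC1, a secreted Wnt and BMP antagonist, fell by 0.61 ± 0.070, and TPBG fell by 0.13 ± 0.043 (adjusted p = 0.0375), a call lost when any of 6 single arrays was left out (adjusted p up to 0.0902).

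Of 22 genes of planar polarity and other beta-catenin-independent signalling, 5 were higher and 3 lower (36.4% called, beside 36.3% of all genes). In this list 18 genes lay above the median signal and 8 of those passed (44.4%), beside 50.1% of such genes in the series. Of the membrane proteins of the polarity complex, VANGL2 rose by 0.73 ± 0.11 (1.66-fold, adjusted p = 0.000206) and VANGL1 by 0.45 ± 0.038, and CELSR1, CELSR2 and CELSR3 did not pass (0.23, -0.13 and -0.16). PTK7 of the same list also rose, by 0.65 ± 0.12 (1.57-fold, adjusted p = 0.00111). The cytoplasmic partners of VANGL proteins, PRICKLE2 and PRICKLE1, fell by 0.72 ± 0.061 and 0.38 ± 0.032. Around PRICKLE1 the neighbour median was -0.26, and after its subtraction PRICKLE1 was at -0.124. NFATC2, a calcium-responsive transcription factor, rose by 0.32 ± 0.044, and by 0.153 when its probe sets were averaged. NLK, a kinase that restrains TCF factors, fell by 0.23 ± 0.036. The WNT5A receptor genes ROR1 and ROR2 were at 0.04 and -0.07 and did not pass.

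Of 31 other known targets of beta-catenin and TCF, 5 rose, 11 fell and 15 did not pass (51.6% called). In this list 21 genes lay above the median signal and 12 of those passed (57.1%), beside 50.1% of such genes in the series. TBX3, a T-box repressor, fell by 1.10 ± 0.044 (2.14-fold, adjusted p = 2.86e-09), and the mean of its probe sets fell by 0.615. PLAUR, the urokinase receptor, fell by 0.61 ± 0.051, with neighbours at -0.21, and JUN by 0.60 ± 0.046. MSX2, a homeobox gene, rose by 0.97 ± 0.086 (1.96-fold, adjusted p = 2.77e-06), but its plain probe set was at 0.09 (adjusted p = 0.31). L1CAM, an adhesion molecule, rose by 0.77 ± 0.087, and EFNB1, an ephrin, by 0.48 ± 0.078.

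Among the most used targets, MYC did not pass and CCND1 did. MYC was at -0.05 ± 0.25 (adjusted p = 0.917), with arrays of one vector spread from 10.15 to 11.42. CCND1, cyclin D1, was 0.13 ± 0.036 higher (adjusted p = 0.013) without overlap, but its neighbours had a median of 0.26 and relative to them it was lower, at -0.124 (adjusted p = 0.0162).

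**Figure D5:**
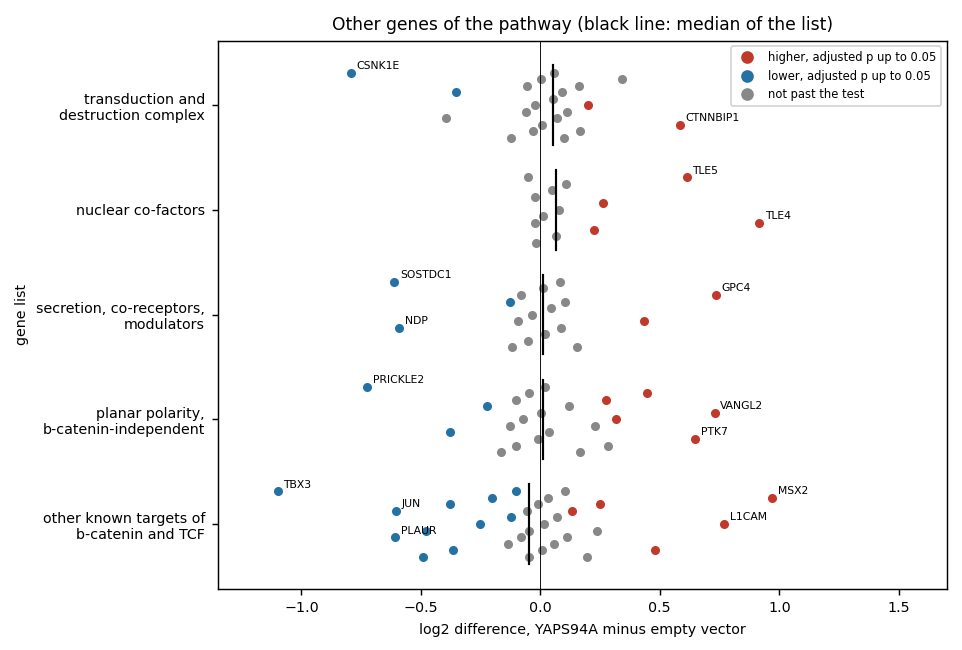
The plot gives the log2 difference (x axis, YAPS94A minus empty vector) of each gene in 5 lists of other pathway genes (y axis, points spread vertically for legibility), with a black line at each list's median. Red and blue points passed the limma test, and names mark those of at least 1.5-fold; the list medians lie between -0.046 and 0.064.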

How the data were processed

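RNA of 10 HuCCT1 samples, 5 per vector, was measured on 1-colour Affymetrix arrays after NuGEN Ovation amplification and biotin labelling, per the labels' protocols. The deposited values are log2 signals of 54675 probe sets, between 2.86 and 14.43, and the summary and normalization the authors used are not given in the sources used here. The medians of the arrays lay between 6.25 and 6.28, and the deposited log2 values were used as they stand. An array has no read depth, and the number of arrays limits the precision.

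Names of probe sets come from GEO's platform annotation, with symbols updated through RefSeq (GRCh38.p14). Of them 41097 had 1 symbol, 1801 several and 11777 none, and 41037 symbols came through RefSeq. The 62 control probe sets were left out. FZD8, WNT3, WNT3A and TCF7 were named by the rule or the lists but had no probe set with that symbol alone and were not analysed here, and antisense genes were not counted as members.

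The vectors were compared with limma 3.58.1 in R 4.3.3 (lmFit and eBayes, no covariate, two-sided) over 19775 genes, and separately over all 54613 probe sets, with Benjamini-Hochberg adjustment over each. Errors of differences are SEs of that fit. The fit was tested on simulated data with independent noise on each array, which cannot test the effect of noise shared between arrays. The members, lists and rules were chosen with earlier results of these data known. Genes with values for each array are Wnt genes past the test at 1.5-fold or more and 9 fixed readouts (WNT5A is in both), with YAP1, and from each further list the 3 smallest p in each direction are named, with MYC and CCND1. FGB, SERPINA1, LUM, COL1A1, LYZ, ROR1, ROR2, PTK7, CELSR1, CELSR2 and CELSR3, and the values for each array of FZD2, FZD6 and MYC, were chosen after their values were seen.

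Both vectors carry the numbers 1 to 5. After subtraction of the group means, arrays that share a number correlated over genes (0.102 to 0.59, above 0.1 in all 5 pairs). Arrays of unlike numbers were not compared in this way, so these values do not show that the numbers pair the arrays. The main fit therefore has no covariate, and the numbers served as a block in an alternative fit only. That block rests on the values and not on a stated batch. No 2 arrays were identical, with correlations of 0.9957 to 0.9991 within a vector. Alternatives were other scalings (quantile, median centring), filters on dim genes, other choices of probe set, an intensity trend, array weights, the replicate block, each array left out, the arrays numbered 1 and 2 left out, and subtraction of the median difference of the 30 nearest genes.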

Additional observations from a re-analysis of the deposited data

Results flagged for a closer look

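In 4 of 108 sets of 5 arrays examined (53 Wnt genes and YAP1, each vector apart), 1 array stood far from the other 4, with a gap above 0.71 of the whole range. About 1 in 20 such sets is expected by chance. WNT9A read 8.22 on YAPS94A array 2, above 7.51 on the next, and its rise was 1.454 without that array. LRP6 read 10.42 on YAPS94A array 2, below 10.59 on the next, and its difference was -0.601 without it. SFRP1, a secreted Wnt-binding inhibitor, read 6.45 on YAPS94A array 1, below 6.53. APCDD1, a membrane inhibitor, read 5.24 on YAPS94A array 3, above 5.12.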

How the results depend on the processing

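Under 21 refits, 14 of the 17 called Wnt genes kept their direction and call in each that measured them, and DKK3, LGR4 and WNT7B did not. The count of higher Wnt genes was 8 to 10 and the count of lower ones 8 to 13, except without _x_at and _s_at probe sets, where 5 of 44 were lower. With the replicate block 9 Wnt genes were higher and 9 lower, LGR6 being the addition, and no other call among the Wnt genes changed. Over all genes 41.2% passed with the block, beside 36.3% in the main fit. In the wider lists the block gave 26 higher and 21 lower. No call changed for the genes named from them by smallest p, nor for MYC and CCND1. The calls of PTK7, CELSR1, CELSR2, CELSR3, ROR1 and ROR2 with the block were not examined. Leaving out single arrays gave 8 to 9 higher and 8 to 9 lower, and 18 to 22 higher and 16 to 19 lower in the wider lists. Those fits called 33.0% to 36.4% of all genes. YAP1 differed by 0.454 to 0.601 there and by 0.184 relative to its neighbours (adjusted p = 0.213). Directions turned for AXIN2 (0.154 in the mean of probe sets, 0.786 without _x_at and _s_at), for HBP1 (-0.033 without them), and relative to neighbours for CTNNB1 (0.189) and CCND1 (-0.124). In these the probe set or the subtraction makes the change, and its cause was not tested. Signals near the lower quartile limit the size of falls, above all for WNT5A.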

Other observations

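FZD6, a receptor of planar polarity, varied more within each vector than between them. It read 9.11, 9.21, 10.11, 10.14 and 10.18 with empty vector and 9.79, 9.18, 10.20, 10.11 and 10.29 with the construct, so the arrays numbered 1 and 2 were the lowest of both. The same arrays were lowest for MYC, at 10.64, 10.15, 11.42, 11.14 and 11.10, and then 10.70, 10.18, 11.04, 11.03 and 11.26. FZD2 read 8.57, 8.71, 8.65, 9.02 and 9.05, and then 8.65, 8.48, 8.93, 8.93 and 9.06. In the fit without the block the 95% intervals of the difference were -0.42 to 0.75 for FZD6, -0.59 to 0.49 for MYC and -0.26 to 0.29 for FZD2. With the replicate block the adjusted p of FZD6 was 0.238, in place of 0.697.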
